A study of Macaca mulatta with 6 samples.

Results

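The 40 genes described here encode proteins of respiratory complexes II to V, and they were measured in adrenal glands of rhesus macaques. Members were taken by symbol: SDHA, SDHB, SDHC, SDHD, CYC1 and every gene whose symbol starts with UQCR, COX4, COX5, COX6, COX7, COX8 or ATP5. Only probe sets that name a single gene were used, and each gene was represented by its probe set with the highest mean. This gave 40 of 11963 genes: 3 of complex II, 7 of complex III, 13 of complex IV and 17 of complex V. The rule itself uses symbols and no measured difference between clock times. All 40 lay above the filter on level and were tested among 7164 genes. SDHB, UQCRFS1, UQCRH and ATP5MF were not analysed here as single genes. The rule also takes in ATP5MC2P1, a pseudogene related to ATP5MC2, and ATP5IF1, an inhibitor of ATP synthase that is not one of its structural subunits.

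The series followed gene expression in a primate adrenal over the day. The left gland of 1 animal was taken every 4 h from 3 AM to 11 PM, so the labels give 6 clock times with 1 animal each and no second animal at any of them. All 6 were ovariectomized females, kept in single cages for 3 months with light for 12 h a day, and fasted for 12 h before necropsy. The labels do not say when the lights came on, so "day" below means the arrays at 7 AM, 11 AM and 3 PM, and "night" those at 7 PM, 11 PM and 3 AM. Age moved with the clock. The animals at 3 AM and 7 AM were 12 years old and the one at 11 AM was 10 years and 37 days, whereas those at 3 PM, 7 PM and 11 PM were 8 years and 106 days, 7 years and 82 days, and 8 years and 70 days.

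Complex II, succinate dehydrogenase, oxidises succinate in the tricarboxylic acid cycle and passes its electrons to ubiquinone. Complex III hands them on to cytochrome c, and complex IV, cytochrome c oxidase, gives them to oxygen. Complexes III and IV pump protons across the inner mitochondrial membrane, and complex V, ATP synthase, makes ATP as the protons flow back. In the adrenal cortex the same membrane also carries steroid-synthesising cytochrome P450 enzymes, which receive electrons from NADPH through adrenodoxin. In the medulla, chromaffin cells make adrenaline and noradrenaline.

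Values are deposited intensities on a linear scale, and fold changes refer to log2(value + 1). The trimmed mean of every array lay between 325.04 and 325.09, and transcripts added as hybridisation controls read lowest at 3 AM and 3 PM. Their geometric means were 545 and 672 there and 951 to 1103 elsewhere. The gland's own markers were present, with the steroidogenic STAR between 9833 and 16413 and tyrosine hydroxylase, TH, between 1903 and 8245. The RNA came from whole glands, in which fewer cells of a type and less RNA per cell cannot be told apart. The array was designed on human sequence, so a probe set's brightness also depends on how well its probes match the macaque transcript. For this reason the results compare arrays within a probe set; levels across probe sets entered only the choice of 1 set per gene, the level filter and the sums over marker lists. By the manufacturer's naming, the suffix x_at marks probe sets that can also bind other transcripts, and 8 of the 40 members, ATP5F1C among them, were read on such a set.

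Most members stood somewhat higher on the 11 PM array and lower on the 3 PM array. The 11 PM array held the highest value of 15 of the 40 members, against 14.8% of all genes tested, and 30 of 40 lay above their own mean there, against 48.9% of all genes. The 3 PM array held the lowest value of 14 members, against 15.5% of all genes, and 11 lay above their mean there, against 55.2%. Of these 11, 6 were among the 13 genes of complex IV. At 7 AM 8 members had their lowest value, against 21.6%. The shifts were small: the members' median deviation from their own mean was 0.14 on the log2 scale at 11 PM and -0.11 at 3 PM, against -0.01 and 0.03 for all genes. Each of these clock times is 1 animal, so an array that is high or low cannot be told apart from an animal that is.

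**Figure D1:**
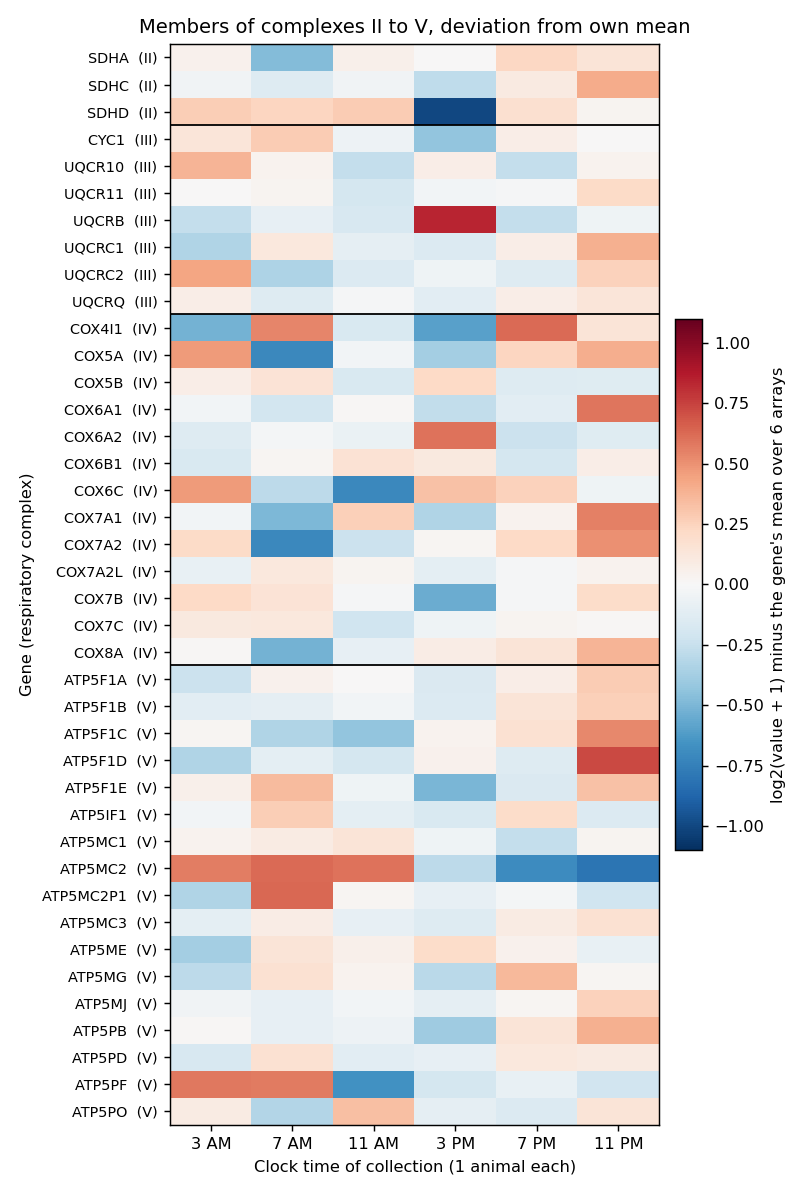
Deviation of each of the 40 members from its own mean over the 6 arrays, in log2(value + 1), with clock time across and genes grouped by complex. Red stands for values above and blue for values below the gene's mean; the 11 PM column is above the mean in 30 of 40 members, and ATP5MC2 is above its mean on the 3 AM, 7 AM and 11 AM arrays.

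**Figure D2:**
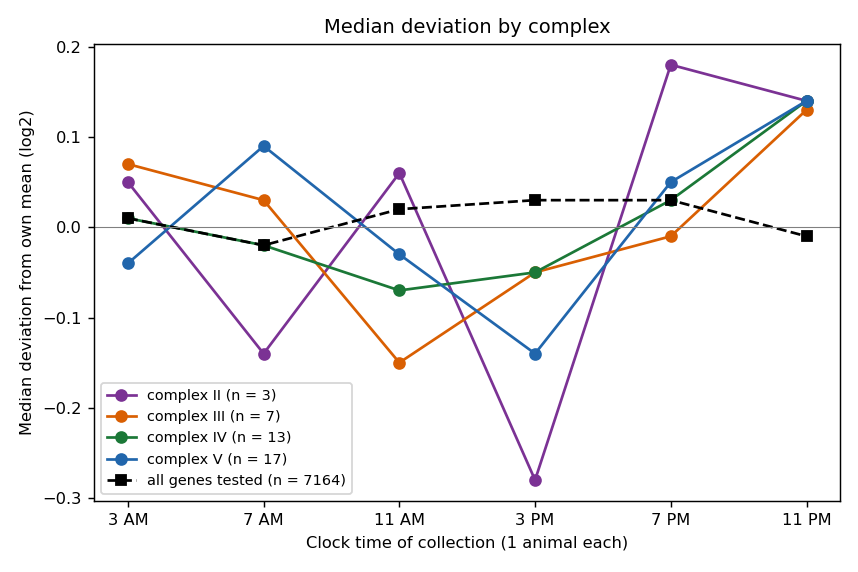
Median deviation from the own mean (log2) of the members of each complex on each array, with all 7164 genes tested as a dashed line. At 11 PM complexes II, IV and V stood at 0.14 and complex III at 0.13. At 3 PM complex II stood at -0.28, complex V at -0.14 and complexes III and IV at -0.05.

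Complex II was lowest at 3 PM or at 7 AM, depending on the subunit. SDHA, the flavoprotein that binds succinate, read 1328 at 3 AM, 923 at 7 AM, 1339 at 11 AM, 1284 at 3 PM, 1506 at 7 PM and 1421 at 11 PM. It was low on the 7 AM array, and the other 5 arrays lay close together. SDHC, a membrane anchor with a share in the ubiquinone site, read 1862, 1742, 1868, 1577, 2052 and 2548 in the same order of clock times, highest at 11 PM. SDHD, the other membrane anchor, read 343.9, 335.6, 345.9, 141.8, 322.4 and 291.0. Its 3 PM value lay far below the other 5, which spanned a narrow band. A second SDHD probe set, at 6.5 to 30.4, was too dim to check that drop. All 3 genes were lower by day, by -0.28 ± 0.21 (SE) for SDHA, -0.31 ± 0.20 for SDHC and -0.32 ± 0.33 for SDHD on the log2 scale, and none passed an unadjusted p of 0.05 in either fit. For SDHC the other 3 probe sets were also lower by day, by -0.14 to -0.46.

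In complex III the members did not share 1 order of arrays. UQCRC2, a core protein of the complex, read 1476 at 3 AM, 860.4 at 7 AM, 982.1 at 11 AM, 1057 at 3 PM, 994.2 at 7 PM and 1297 at 11 PM. It was high on the late-night arrays and similar on the other 4. On its second probe set 3 AM was also highest (793.4), and 3 PM was lowest (532.4). UQCRC1, the other core protein, was highest at 11 PM (3940) and lowest at 3 AM (2392), the array on which UQCRC2 was highest. CYC1, cytochrome c1, which passes electrons to cytochrome c, read 1210, 1344, 1060, 822.0, 1164 and 1103 from 3 AM to 11 PM, with its lowest value at 3 PM. UQCRB, a ubiquinone-binding subunit, read 933.9, 1050, 983.4, 1992, 930.0 and 1080. The 3 PM array stood apart from the other 5, which lay between 930.0 and 1080. That high value was not seen on the other UQCRB probe sets, which read 704.2 and 126.6 at 3 PM within ranges of 536.8 to 892.0 and 126.6 to 229.2. The small subunits varied less, by 1.20-fold between the highest and lowest array for UQCRQ, 1.32-fold for UQCR11 and 1.55-fold for UQCR10. Of the 7 genes 6 were lower by day, the exception being UQCRB (0.38 ± 0.28, SE). Among those 6 the largest difference was -0.36 ± 0.21 for UQCRC2, and none of the 7 passed the unadjusted threshold in either fit.

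Complex IV held the 2 members with the clearest day and night difference, COX5A and COX7A2. COX5A, a matrix-side subunit, read 1573 at 3 AM, 693.4 at 7 AM, 1114 at 11 AM, 876.2 at 3 PM, 1338 at 7 PM and 1496 at 11 PM. Every night array lay above every day array. The night mean was 1.67 times the day mean (log2 day minus night -0.74 ± 0.22, SE). COX7A2, the form of subunit VIIa found in most tissues, read 1006, 531.1, 735.1, 880.2, 1017 and 1236 in the same order. Its day and night arrays were also apart, with the lowest value again at 7 AM, and the night mean was 1.54 times the day mean (log2 -0.63 ± 0.23, SE).

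These were 2 of the 40 members at an unadjusted p under 0.05 by limma (0.00883 for COX5A and 0.0247 for COX7A2), against 5.39% of all genes tested, and neither passed adjustment over all genes, with adjusted p = 0.766 and adjusted p = 0.817. The COX5A difference ran from -0.57 without 7 AM to -0.91 without 11 AM and passed the unadjusted threshold without each single array, but not without 3 AM and 3 PM together (-0.69). That of COX7A2 did not pass without 7 AM (-0.43) or without 11 PM (-0.53). Each of these genes has a single probe set, so neither could be checked on another.

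**Figure D3:**
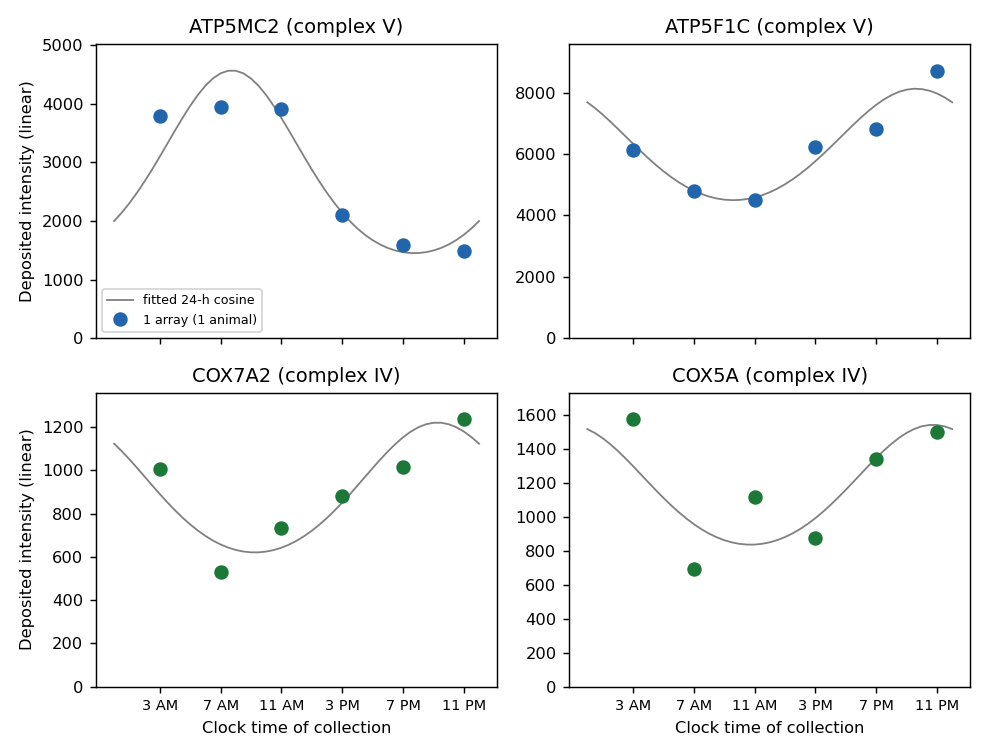
Deposited intensity (linear axis from 0) by clock time for ATP5MC2, ATP5F1C, COX7A2 and COX5A, with 1 point per array and the fitted 24-h cosine as a grey line. ATP5MC2 forms 2 levels, 3788 to 3946 on the first 3 arrays and 1479 to 2108 on the last 3, while COX5A and COX7A2 are lowest at 7 AM.

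The 2 forms of subunit VIa were highest on different arrays. COX6A1 is the widespread form of subunit VIa, and it read 2791 at 3 AM, 2481 at 7 AM, 2872 at 11 AM, 2358 at 3 PM, 2620 at 7 PM and 4288 at 11 PM, so that 11 PM alone stood out. COX6A2, the heart and skeletal muscle form, read 247.3, 268.8, 261.0, 415.1, 230.8 and 250.1, so that 3 PM alone stood out. Its day arrays all lay above its night arrays (log2 0.34 ± 0.22, SE, unadjusted p by limma 0.163). COX7A1, the muscle form of subunit VIIa, which brown fat also makes, read 221.6, 160.4, 269.7, 178.8, 231.7 and 331.6. Its lowest and highest arrays, 7 AM and 11 PM, were those of COX7A2, and it was also lower by day (log2 -0.38 ± 0.26, SE, not past the unadjusted threshold). COX7A2L, a related protein involved in assembling supercomplexes, was the steadiest of all 40 members, with 1.18-fold between its highest (963.7) and lowest (819.8) array. Both muscle forms read not far above the level filter, an intensity of about 157. Of 5 striated muscle markers measured, 3 were above that filter: MYH7 read 147.4 to 234.8, MYL2 102.5 to 259.5 and TNNI3 232.7 to 344.3. ACTA1 read 8.5 to 62.1 and CKM 14.6 to 38.5. MYL2 had an unadjusted p of 0.0497 by limma in the cosine fit. The part of muscle RNA in these values was not tested.

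Of the other complex IV subunits, COX7B read 3718 at 3 AM, 3548 at 7 AM, 3175 at 11 AM, 2189 at 3 PM, 3187 at 7 PM and 3685 at 11 PM, with 3 PM well below the rest. Its exact order p, a test of R2 over the 60 circular orders of the arrays, was 0.0167, the smallest possible, while its unadjusted p by limma in the cosine fit was 0.147. Of the 40 members, 2 had an exact order p under 0.05, COX7B and ATP5F1C, a share near the 3.70% of all genes tested. COX8A, the widespread form of subunit VIII, read 677.1, 467.5, 633.3, 712.8, 743.3 and 872.3 in that order, lowest at 7 AM like COX5A. COX6C ran from 136.6 at 11 AM to 309.5 at 3 AM. COX4I1, the regulatory subunit IV, ranged widely, from 2374 at 3 PM to 5533 at 7 PM. It had high values at both 7 AM (5258) and 7 PM, and a 24-h curve took up little of its variation (R2 0.0358). On a second COX4I1 probe set 7 PM was the lowest array (1087) and 11 PM the highest (2062), with 7 AM at 1842, so the high 7 PM value was seen on 1 set and not on the other. COX5B, COX6B1 and COX7C varied by 1.32-fold, 1.27-fold and 1.26-fold in that order on the probe sets used. Further sets of COX5B and COX7C varied more. On one COX5B ran from 613.2 at 3 AM to 1036 at 7 PM, and on another COX7C ran from 557.7 at 3 PM to 1155 at 7 PM. The 3 probe sets of COX7C gave day minus night values of -0.10, 0.01 and -0.52. In all, 9 of 13 complex IV genes were lower by day.

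Complex V contained the largest swing of any member, in ATP5MC2. This is one of the genes for the c subunit, the ring that turns as protons pass, and all of them encode the same mature protein. ATP5MC2 read 3788 at 3 AM, 3946 at 7 AM, 3911 at 11 AM, 2108 at 3 PM, 1590 at 7 PM and 1479 at 11 PM. The first 3 arrays were nearly level and all lay above the last 3. The fitted peak was 3.15 times the trough (log2 1.65 ± 0.31, SE), at 7.75 h. The animals on the high arrays were the oldest, 10 to 12 years against 7 to 8 years, so clock time and age cannot be told apart for this gene. With age as a covariate the fitted difference was 0.66 ± 0.42 (SE) and did not pass the unadjusted threshold.

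By limma ATP5MC2 had an unadjusted p of 0.00277 and an adjusted p = 0.836 over all genes. It passed the unadjusted threshold without each single array, with differences from 1.45 to 1.91. Its day minus night difference was 0.62 ± 0.39 (SE) and did not pass, but it was 1.06 without the 3 AM array, where it passed the unadjusted threshold. The exact order test gave p = 0.100. A second, dimmer probe set read 232.2, 82.0, 149.6, 144.2, 157.2 and 124.9 from 3 AM to 11 PM and did not show the 2 levels. With both probe sets averaged the fitted difference was 0.66 ± 0.39 (SE) and did not pass. The other c-subunit genes varied less. ATP5MC1 ran from 496.3 at 7 PM to 656.6 at 11 AM and ATP5MC3 from 3144 at 3 PM to 3910 at 11 PM. A second ATP5MC3 probe set read 3452, 2896, 2925, 2372, 2530 and 2709 from 3 AM to 11 PM. On that set the arrays from 3 AM to 11 AM all lay above those from 3 PM to 11 PM, a split picked from the ATP5MC2 values. The fitted difference was smaller (log2 0.43), with an unadjusted p of 0.420 by limma in a cosine fit over every probe set. On the ATP5MC3 set used, these arrays were not apart. The pseudogene ATP5MC2P1 read 148.8 to 290.2, with its highest value at 7 AM.

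The subunits of the catalytic head were highest at 11 PM except the smallest. ATP5F1C, the gamma subunit that forms the central shaft, read 6138 at 3 AM, 4796 at 7 AM, 4497 at 11 AM, 6222 at 3 PM, 6809 at 7 PM and 8717 at 11 PM. The values at 7 AM and 11 AM were the lowest and the evening values the highest. The fitted peak was 1.81 times the trough (log2 0.85 ± 0.27, SE), at 21.6 h. By limma the unadjusted p was 0.0389 and the adjusted p = 0.836, and the exact order test gave p = 0.0333. On 2 other probe sets of ATP5F1C, which also carry the suffix x_at, the peaks were at 20.7 h and 21.6 h but smaller, log2 0.35 and 0.28. A dim set without that suffix (38.8 to 181.1) peaked at 1.29 h. The call was lost without 7 AM, 11 AM or 11 PM, with 0.70 the smallest difference. It was also lost with age as a covariate (0.68), with probe sets averaged (0.72) and with no filter on level (0.85).

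ATP5F1A and ATP5F1B, the alpha and beta subunits that carry the catalytic sites, varied by 1.43-fold and 1.33-fold and reached 8479 and 9780 at 11 PM. ATP5F1D, the delta subunit, read 1416 to 1848 on 5 of the arrays and 2957 at 11 PM, which alone stood out. On its second probe set the 11 PM value was 841.4, within a range of 659.7 to 877.5. ATP5F1E, the epsilon subunit, was lowest at 3 PM (568.3) and highest at 7 AM (1022). ATP5PB, a subunit of the side stalk that keeps the head from turning, read 1975, 1838, 1884, 1501, 2163 and 2568 from 3 AM to 11 PM. Its night arrays all lay above its day arrays (log2 -0.36 ± 0.20, SE). ATP5PF, another stalk subunit, was near 720 at 3 AM (722.9) and 7 AM (719.7), the arrays of the 2 oldest animals, and 303.0 to 456.6 on the rest. ATP5PO, a stalk subunit that contacts the head, ranged from 2186 to 3426 with no 24-h pattern (R2 6.38e-04). ATP5IF1, which binds and inhibits the enzyme, varied by 1.35-fold, from 665.0 at 3 PM to 899.6 at 7 AM. ATP5ME, a membrane subunit, was higher on every day array than on every night array (log2 0.27 ± 0.19, SE), but its second probe set ran the other way (-0.59).

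Over all 40 members, 31 were lower by day, against 50.9% of all genes tested, with a median log2 difference of -0.14 against -0.00. By complex these were 3 of 3, 6 of 7, 9 of 13 and 13 of 17. The 9 that were higher by day were UQCRB, COX5B, COX6A2, COX6B1, COX7A2L, ATP5MC1, ATP5MC2, ATP5MC2P1 and ATP5ME. The count was 24 without the 3 PM array and 27 without 11 AM, 7 PM or 11 PM, with medians of -0.06 without 3 PM and -0.08 without 11 PM. It was 31 after quantile normalization and 32 after centring on the median. Without both 3 AM and 3 PM it was 24. Every day array lay below every night array in 4 members, UQCRQ, COX5A, COX7A2 and ATP5PB, against 5.26% of all genes, and above in 2, COX6A2 and ATP5ME, against 5.61%.

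**Figure D4:**
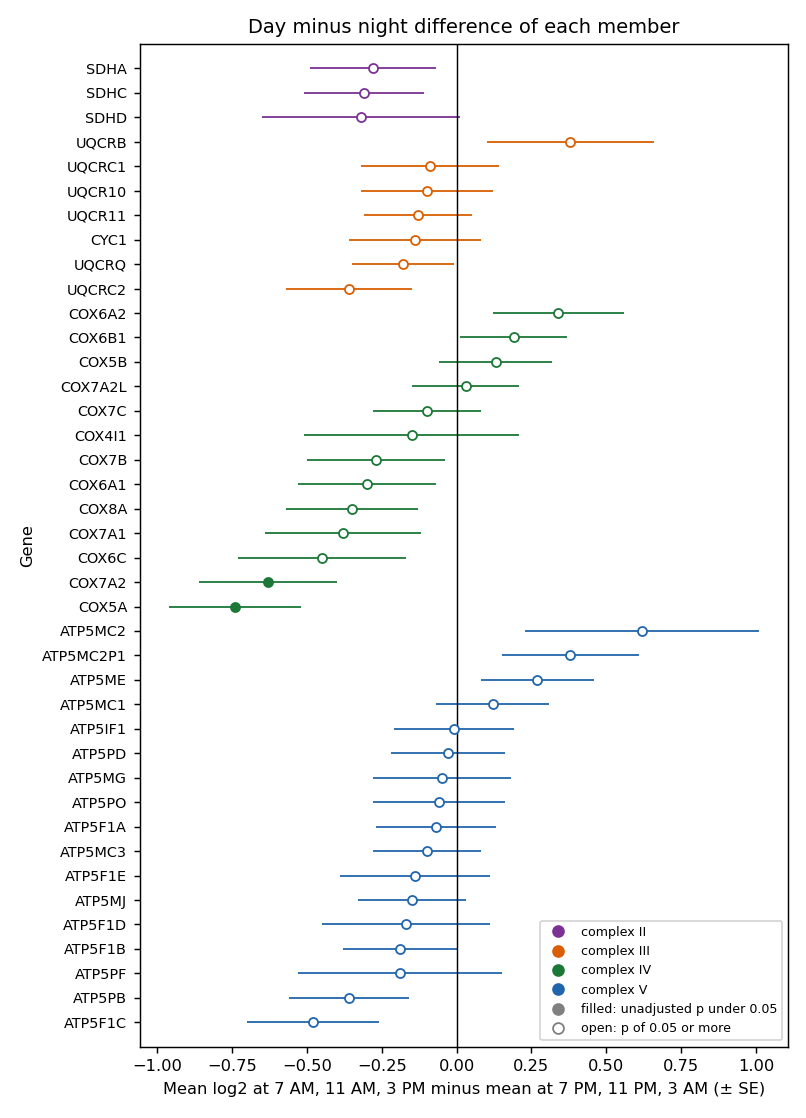
Log2 difference between the mean of the 3 day arrays and the mean of the 3 night arrays for each member, with bars of ± 1 standard error of the limma fit, grouped by complex. Filled points, COX5A and COX7A2, have an unadjusted p under 0.05; 31 of 40 points lie left of 0.

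Few single members passed a test. In the daytime contrast 2 of 40 had an unadjusted p under 0.05 by limma, against 5.39% of all genes tested, and in the cosine fit 3 of 40 (ATP5MC2, ATP5F1C and COX7A2), against 5.56%. Both shares are near the background. After Benjamini-Hochberg adjustment over the 7164 genes, 0 members passed either fit, and the share of all genes was 0% in both. The lowest adjusted p of a member was 0.836 in the cosine fit and 0.766 in the daytime contrast. The fitted peak of COX7A2 was 1.97 times its trough (log2 0.98 ± 0.31, SE) at 21.3 h, with an unadjusted p of 0.0426 and an exact order p = 0.100. Its call in the cosine fit was kept only without 3 AM among the fits that leave out 1 array.

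Fitted peaks gathered in the late evening. Of the 40 members 19 had their fitted peak between 20 h and 24 h, against 16.5% of all genes, among them 7 of 13 in complex IV and 8 of 17 in complex V. The median peak-to-trough difference was 0.46 on the log2 scale, against 0.43 for all genes, with a median standard error of 0.30 per member, so most peak hours come from curves little larger than their error. Over pairs of members the median Pearson correlation across the 6 arrays was 0.12, against 0.00 over all pairs of genes tested, and it was 0.44 in complex II, 0.14 in complex III, -0.02 in complex IV and 0.20 in complex V. These pairs share the same 6 animals and arrays, and the complex II value rests on 3 pairs and the complex III value on 21.

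Most other genes of mitochondrial energy supply had differences of the same sign. Among those higher by day the largest differences were in NDUFC1 (0.70 ± 0.48, SE) and COX20 (0.57 ± 0.28, SE). Of 26 complex I genes tested 20 were lower by day, against 50.9% of all genes tested, with a median of -0.17. Of 11 genes of the tricarboxylic acid cycle 10 were lower by day, with a median of -0.20. For assembly factors it was 14 of 17 (-0.13), for carriers and channels of ATP, phosphate and ions 7 of 7 (-0.10), and for regulators of mitochondrial biogenesis 7 of 11 (-0.14). At an unadjusted p under 0.05 the daytime contrast gave 1 of these genes, DLST, lower by day, and 0 higher, against 5.39% of all genes tested. The cosine fit gave 2, NDUFC1 and ESRRG, against 5.56%. None passed adjustment.

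DLST, a subunit of 2-oxoglutarate dehydrogenase, read 992.2 at 3 AM, 547.8 at 7 AM, 649.4 at 11 AM, 518.4 at 3 PM, 709.2 at 7 PM and 1006 at 11 PM. SUCLA2, a subunit of succinyl-CoA synthetase in the same cycle, read 458.7, 281.5, 329.2, 216.0, 296.9 and 467.1. Both were high at 3 AM and 11 PM, as COX5A and UQCRC2 were. CYCS, cytochrome c, which links complex III to complex IV, read 860.4, 485.6, 549.5, 562.7, 574.6 and 727.1, again highest at 3 AM and lowest at 7 AM. SLC25A5, which exchanges ADP for ATP across the inner membrane, was level at 4505 to 4609 from 3 AM to 3 PM and read 6124 at 7 PM and 6244 at 11 PM. VDAC3, a channel of the outer membrane, was highest at 7 AM (4105) and lowest at 7 PM (2497). NDUFS1, the largest complex I subunit, ran from 2263 at 7 AM to 3437 at 7 PM. NDUFC1, a small complex I subunit, had a fitted peak 4.17 times its trough at 14.6 h, and the oestrogen-related receptor ESRRG 2.34 times at 17.2 h. Both were dim, NDUFC1 at 86.5 to 285.9 and ESRRG at 118.6 to 286.9. Their geometric means, 157 and 170, lay near the level filter of about 157. Among the other genes of these pathway lists the smallest p values of the cosine fit belonged to POLRMT, the mitochondrial RNA polymerase (86.9 to 277.0), and the assembly factors COX20 (119.8 to 251.4) and TMEM70 (378.5 to 695.8).

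Some markers of fat had array orders like that of COX5A, and others did not. FABP4, a fatty acid binding protein of adipocytes, read 2376 at 3 AM, 760.7 at 7 AM, 1457 at 11 AM, 866.9 at 3 PM, 1319 at 7 PM and 2130 at 11 PM. It put the arrays in the same order as COX5A except for 11 AM and 7 PM, which changed places. CIDEA, a lipid droplet protein abundant in brown fat, read 446.1, 101.5, 401.4, 231.4, 460.1 and 885.6, and UCP1, the uncoupling protein that defines brown fat, read 1463, 124.0, 419.7, 508.7, 401.7 and 587.0. Both were lowest at 7 AM, as were COX5A, COX7A1, COX7A2, COX8A, UQCRC2, UQCRQ, SDHA and ATP5PO. These are 8 of 40 members, no larger a share than the 21.6% of all genes. Of 6 adipocyte markers measured, 3 were above the level filter, FABP4, LPL and CFD. LPL, lipoprotein lipase, read 1086, 411.8, 477.5, 279.3, 522.6 and 850.7 from 3 AM to 11 PM, lowest at 3 PM. CFD, the adipocyte-secreted complement factor D, read 563.5, 449.2, 583.9, 351.1, 666.1 and 497.2, highest at 7 PM and lowest at 3 PM. The list summed to 1751 at 7 AM, 2699 at 11 AM and 1638 at 3 PM, against 2649 at 7 PM, 3672 at 11 PM and 4280 at 3 AM. LEP stayed at 3.6 to 18.2, PLIN1 at 31.5 to 79.7 and ADIPOQ at 79.6 to 178.5. Of 3 brown fat markers 2 were above the filter, CIDEA and UCP1. The other, PPARGC1A, read 87.5, 92.6, 76.5, 87.2, 88.3 and 117.1 from 3 AM to 11 PM, lowest at 11 AM. The sum of all 3 ran from 318 at 7 AM to 1997 at 3 AM. The part of fat in the values of these members was not tested.

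**Figure D5:**
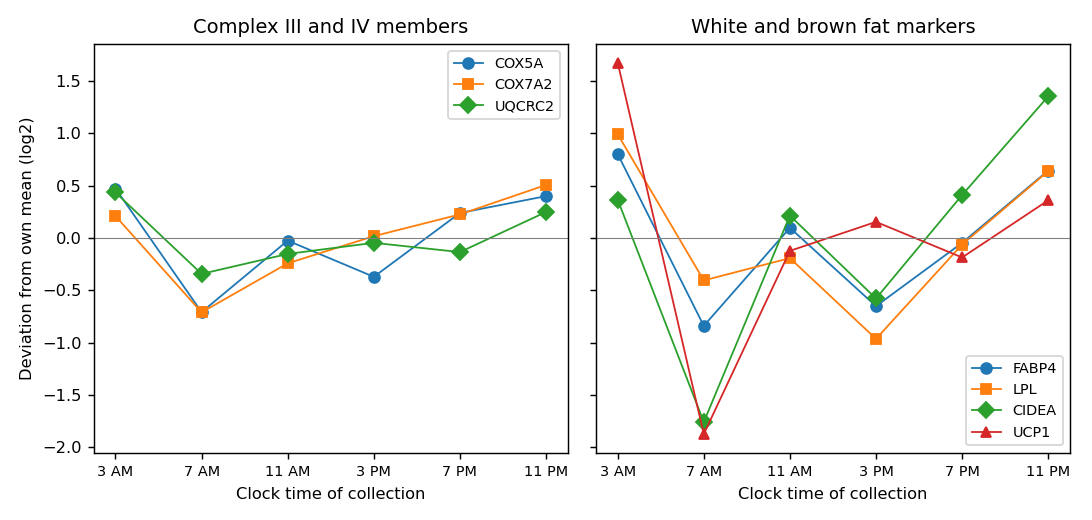
Deviation from the own mean (log2) by clock time for COX5A, COX7A2 and UQCRC2 (left) and for the white fat markers FABP4 and LPL and the brown fat markers CIDEA and UCP1 (right), on the same axis. All 3 members are lowest at 7 AM, as are FABP4, CIDEA and UCP1, and FABP4, LPL and CIDEA have another low value at 3 PM. The other markers of the fat lists are not shown, among them CFD, highest at 7 PM, and PPARGC1A, lowest at 11 AM.

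Markers of the gland's own cell types also differed between arrays. The 8 measured cortex markers summed to 59401 at 3 AM, 69561 at 7 AM, 73701 at 11 AM, 74401 at 3 PM, 93202 at 7 PM and 88859 at 11 PM, and each of the 8 exceeded its mean at 7 PM and at 11 PM. At 11 PM 30 of 40 members also exceeded theirs. At 7 PM, where the cortex sum was highest, 23 of 40 members did. Their median deviation at 7 PM was 0.04 on the log2 scale, against 0.03 for all genes tested. The 9 measured chromaffin markers summed to 14764 at 3 AM, 37510 at 7 AM, 22738 at 11 AM, 28360 at 3 PM, 22400 at 7 PM and 20710 at 11 PM. This sum, with CHGB alone at 18268, was highest at 7 AM, where COX5A and COX7A2 were lowest. DBH (785.9) and SLC18A1 (301.5) were highest at 3 PM instead. Of the 40 members 8 were lowest at 7 AM, against 21.6% of all genes, and 8 were highest there. At 7 AM 22 of 40 lay above their own mean, with a median deviation of 0.03 against -0.02 for all genes. All 8 chromaffin markers tested were higher by day, with a median log2 difference of 0.75, against -0.14 for the members. Of these, 4 had an unadjusted p under 0.05, among them TH (1.09 ± 0.31, SE), and 0 passed adjustment. Of the 8 cortex markers 7 were lower by day, with a median of -0.23. Their part in the members' values was not tested. Of the remaining marker lists, smooth muscle summed to between 2759 at 11 PM and 7448 at 7 PM, endothelial cells to 1673 to 2664, macrophages to 1182 to 1526, lymphocytes to 1083 to 1342, red blood cells to 1564 to 2782, fibroblasts and capsule to 13279 to 16482, striated muscle to 631 to 794, Schwann and glial cells to 157 to 379, and kidney to 414 to 584.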

How the data were processed

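The deposited values are linear intensities, 1 for each probe set on each array. That the authors had scaled them is read from the near-equal trimmed means (2% from each end). No source used here names the software that summarised the probes. Per the labels, biotin-labelled cRNA was hybridised to an Affymetrix array. Gene names came from the platform annotation, in which 19065 of 22283 probe sets name 1 gene. Values were converted to log2(value + 1), and genes were tested where the mean reached 7.30, the median of the probe sets that are not controls.

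With limma 3.58.1 in R 4.3.3, a 24-h cosine (moderated F test, 3 residual degrees of freedom) and the 3 day against 3 night arrays were fitted over 7164 genes, with Benjamini-Hochberg adjustment and a threshold of 0.05. The exact order test compares R2 over 60 circular orders. It was run for all 40 members; it is given for those past the unadjusted threshold of the cosine fit and for COX7B, picked with its value in view. With 3 arrays against 3 an exact test cannot go below 0.1. The fits were tested on simulated data. The number of arrays limits the precision.

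Named are, per complex, the 2 members with the smallest p in each fit, members past the unadjusted threshold, alternative isoforms, the 2 genes of smallest p of the cosine fit in each pathway list and up to 2 per marker list; other genes were picked with their values in view. The members and lists were chosen with earlier results of these data known. Alternatives were the level filter, the pseudocount (16 in place of 1), normalization, probe sets averaged per gene, the prior, age as a covariate and leaving out each array. No nucleotide or protein sequence was used here.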

Additional observations from a re-analysis of the deposited data

How the results depend on the processing

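The fit without the 3 AM and 3 PM arrays was chosen after seeing the data. The 3 members at an unadjusted p under 0.05 in the cosine fit became 1 with no filter on level (ATP5MC2), with probe sets averaged (COX7A2), with age as a covariate (COX6C) and without the 3 AM and 3 PM arrays (ATP5MC2), and ranged from 1 to 4 without single arrays. The 2 members in the daytime contrast ranged from 1 to 4 without single arrays. After adjustment over all genes 0 passed in both fits, except 1 in the cosine fit with the stricter filter (PER2, with 3804 genes tested) and, leaving out single arrays, 0 to 1 in the daytime contrast (IRGQ, without 11 PM). The median daytime difference over members ranged from -0.20 to -0.06 without single arrays and kept its sign under every alternative run. Without moderation COX7A2 did not pass the unadjusted threshold in either fit and UQCRQ passed in the daytime contrast. Under quantile normalization the exact order p of ATP5F1C was 0.0833. Where neither fewer arrays nor another number of genes accounts for a change, the cause was not tested. For single named genes, 970 values kept their side of the unadjusted threshold, 42 gained it and 28 lost it. Of the daytime differences not called at that threshold, 15 changed sign. No paired analysis was possible because no clock time holds more than 1 animal. Background signal is not among the values, so the level filter alone limits dim probe sets.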
